A study of Mus musculus with 36 samples.

Results

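The 9 genes described here set the entry of a resting blood stem cell into division: Cdk6, the D-type cyclin genes Ccnd1, Ccnd2 and Ccnd3, the Cip/Kip inhibitor genes Cdkn1a, Cdkn1b and Cdkn1c, and the Ink4 inhibitor genes Cdkn2a and Cdkn2c. Open chromatin around them was measured by ATAC-seq, where sequencing adapters are put by a transposase into DNA it can reach. Overlapping peaks (1 bp or more shared) of the 36 libraries were joined into 105005 regions, and a region belonged to a gene when its centre lay nearest to one of that gene's transcription start sites (TSSs) among all protein-coding TSSs. This rule gave 129 regions, of which 34 lay nearest to Cdk6, 21 to Ccnd2, 19 to Ccnd1, 18 to Ccnd3, 13 to Cdkn1c, 7 to Cdkn2c, 6 each to Cdkn1a and Cdkn2a, and 5 to Cdkn1b. The median gene with any region had 4. With TSSs of genes of all types in the rule the 9 genes held fewer regions, as given below under the dependence on processing. Nearness assigns a region to a gene but does not show that it acts on that gene.

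A region counted as called where a deposited peak of that library lay in it. Its level was the highest fold enrichment over local background that the peak caller gave there. Regions are named by gene and by the distance of their centre from the nearest TSS of that gene, negative upstream and positive downstream, and coordinates are those of mm10, which is GRCm38.

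Each library was made from 20000 freshly sorted bone marrow cells of C57BL/6 mice, which the study describes as female. Young mice were 10 weeks old and aged mice 20 months old, with no other allele or agent in either group. HSCs and the multipotent progenitors MPP1 to MPP4 were sorted from the lineage-negative cells with Sca-1 and c-kit. The HSCs lacked CD34, CD48 and Flt3 and carried CD150, the MPP1 cells differed from them by CD34, the MPP2 cells by CD48 as well, the MPP3 cells had CD48 without CD150 or Flt3, and the MPP4 cells added Flt3. GMPs were c-kit+ Sca-1- FcgR+ CD34+ cells, MEPs were the c-kit+ Sca-1- cells without FcgR or CD34, and CLPs were labelled IL-7+, which by the study's antibodies is the IL-7 receptor alpha chain, and were low in Sca-1 and c-kit. There were 4 young and 4 aged HSC libraries and 2 of each age for every other fraction. According to the study's methods the marrow of each age was pooled before sorting, so that libraries of one age may share mice and a p-value then measures only the spread between these libraries. In sorted bulk cells a weaker peak from fewer open cells cannot be told apart from a weaker opening in every cell.

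Libraries held 9581 to 63288 peaks, the fewest in MEPs (9581 to 11041) and the most in GMPs (52576 to 63288). The number of peaks therefore moves with the fraction in every comparison of calls that includes GMPs or MEPs, and for the 9 genes the counts of calls per library and of calls past the test are also given with every library cut to its 9581 strongest peaks. Among the start-site regions of 4 GMP marker genes, Elane and Cebpe were called in the 4 GMP libraries alone, Mpo in these and 1 MPP3 library, and Fcgr3 in these, in every MPP2, MPP3 and MPP4 library and in 3 CLP libraries. They did not set the MEPs apart: Epor and Tfrc were called in all 4 MEP libraries but also in all 8 of HSCs, Klf1 in 1 MEP and 8 HSC libraries, and no region lay within 1000 bp of a Gata1 TSS. Hlf and Mecom, genes of stem cells, were called in all 8 HSC libraries and also in every MPP, GMP and CLP library. Il7r was called in 4 of 4 MPP4, GMP and CLP libraries, Rag1 in 2 CLP libraries alone, Ebf1 in 3 CLP but also in all 8 HSC libraries, and Dntt had no region. No region was called at the TSSs of the B cell genes Ms4a1 and Pax5, the T cell genes Cd3d, Cd3e and Cd3g, or the neutrophil gene Ly6g, whereas the neutrophil gene Camp was called in 4 of 4 GMP, 1 MPP3 and 1 MPP4 libraries.

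Cdk6 and its relative Cdk4 are kinases that become active when bound by a D-type cyclin. The complex phosphorylates the retinoblastoma protein, which frees E2F factors to switch on the genes of DNA replication. Ink4 proteins bind the kinases and block the cyclin, while Cip/Kip proteins bind whole cyclin-kinase complexes. Long-term HSCs rest in G0, and Cdkn1c and Cdkn1b are known for keeping them there, while Cdk6 is known for setting how fast a stem cell leaves rest.

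The sequences shown are 201 bases around the median summit of 8 regions whose calls differed between fractions, read from GRCm38.p6 on the plus strand. Capitals mark matches to a short list of motifs, on either strand: E2F (TTTGGCGC, TTTCCCGC, TTTCGCGC or TTTGCCGC), FOX (GTAAACA), RUNX (TGTGGTT and the variant TGCGGTT), STAT (TTCNNNGAA), the motif GATA (the letters AGATAA and the variant TGATAA), C/EBP (TTGCNNAA or TTGTGNAAT), E-box (CACGTG), GC box (GGGCGGGG), ETS (ACCGGAAG, CCCGGAAG or CAGGAAGT), AP-1 (TGAGTCA and the variant TGACTCA), CRE (TGACGTCA) and HOX (TGATTTAT). The first pair was called in HSCs and MPP1 and in no GMP, MEP or CLP library. The next 4 were called in no HSC library and in every MPP4, GMP and CLP library, the seventh marked the MEPs, and the eighth is the strongest region of Cdkn2c called in GMPs alone.
Cdk6 +89.2 kb, chr5:3433405-3433605: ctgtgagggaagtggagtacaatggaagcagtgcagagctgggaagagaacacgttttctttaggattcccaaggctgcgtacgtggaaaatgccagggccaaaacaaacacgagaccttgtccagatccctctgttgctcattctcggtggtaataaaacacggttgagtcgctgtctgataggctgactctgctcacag
Cdkn1c +70.5 kb, chr7:143390357-143390557: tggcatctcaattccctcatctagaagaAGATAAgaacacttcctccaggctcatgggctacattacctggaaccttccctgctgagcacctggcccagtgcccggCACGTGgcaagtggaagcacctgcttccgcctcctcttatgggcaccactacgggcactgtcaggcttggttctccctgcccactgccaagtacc
Cdk6 -70.5 kb, chr5:3273226-3273426: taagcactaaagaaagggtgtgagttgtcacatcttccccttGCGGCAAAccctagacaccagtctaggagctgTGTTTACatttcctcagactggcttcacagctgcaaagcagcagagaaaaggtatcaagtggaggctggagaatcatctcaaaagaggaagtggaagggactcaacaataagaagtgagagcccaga
Ccnd1 -31.4 kb, chr7:144971085-144971285: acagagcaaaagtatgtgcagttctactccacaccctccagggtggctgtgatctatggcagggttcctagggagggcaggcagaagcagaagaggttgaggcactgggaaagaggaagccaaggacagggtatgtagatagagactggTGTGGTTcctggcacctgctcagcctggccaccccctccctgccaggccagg
Ccnd2 -103.0 kb, chr6:127254023-127254223: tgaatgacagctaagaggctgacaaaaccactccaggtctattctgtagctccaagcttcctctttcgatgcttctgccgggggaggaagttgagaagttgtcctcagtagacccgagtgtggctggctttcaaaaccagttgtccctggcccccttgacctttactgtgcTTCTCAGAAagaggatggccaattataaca
Ccnd3 +37.1 kb, chr17:47542165-47542365: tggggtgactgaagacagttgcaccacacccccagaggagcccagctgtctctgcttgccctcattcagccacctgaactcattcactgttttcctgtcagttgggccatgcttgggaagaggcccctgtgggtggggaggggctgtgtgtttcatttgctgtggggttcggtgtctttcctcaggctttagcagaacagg
Ccnd3 +30.9 kb, chr17:47535880-47536080: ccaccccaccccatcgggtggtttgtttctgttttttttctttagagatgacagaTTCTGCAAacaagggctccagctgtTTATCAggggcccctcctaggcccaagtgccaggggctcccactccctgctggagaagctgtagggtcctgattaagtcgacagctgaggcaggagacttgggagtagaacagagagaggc
Cdkn2c +55.4 kb, chr4:109609879-109610079: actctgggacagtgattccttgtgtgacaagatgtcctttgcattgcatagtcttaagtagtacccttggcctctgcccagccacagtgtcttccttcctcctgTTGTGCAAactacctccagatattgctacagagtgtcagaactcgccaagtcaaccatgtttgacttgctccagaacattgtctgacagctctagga

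A match is a description of letters and not a site. Windows of this length around the summits of all regions held an E2F match in 0.831%, FOX in 2.49%, RUNX in 12.6%, STAT in 5.68%, GATA in 17%, C/EBP in 14.2%, E-box in 4.39%, GC box in 5.78%, ETS in 8.56%, AP-1 in 8.92%, CRE in 0.732% and HOX in 0.881%. Among the 129 windows of the 9 genes the counts were 2 for E2F, 4 for FOX, 10 for RUNX, 6 for STAT, 13 for GATA, 22 for C/EBP, 7 for E-box, 10 for GC box, 5 for ETS, 12 for AP-1, 1 for CRE and 0 for HOX. Both E2F matches lay in the windows of Cdk6 -70.5 kb and Ccnd1 -1.7 kb.

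Regions over the starts of Cdkn1b and of the upstream Cdkn2c transcript were called in all 36 libraries, and the bases before these starts show how start sites of the inhibitor genes differ in letters. The 250 bases before each start are taken from RefSeq (GRCm38.p6), 5′ to 3′ on the gene's strand.
Cdkn1b promoter, chr6:134920151-134920400, plus strand: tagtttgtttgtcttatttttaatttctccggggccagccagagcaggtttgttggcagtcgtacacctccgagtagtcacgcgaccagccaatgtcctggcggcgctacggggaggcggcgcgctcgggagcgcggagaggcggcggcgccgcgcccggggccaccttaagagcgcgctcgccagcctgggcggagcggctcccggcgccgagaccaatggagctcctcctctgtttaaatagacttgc
Cdkn2c promoter, chr4:109666757-109667006, minus strand: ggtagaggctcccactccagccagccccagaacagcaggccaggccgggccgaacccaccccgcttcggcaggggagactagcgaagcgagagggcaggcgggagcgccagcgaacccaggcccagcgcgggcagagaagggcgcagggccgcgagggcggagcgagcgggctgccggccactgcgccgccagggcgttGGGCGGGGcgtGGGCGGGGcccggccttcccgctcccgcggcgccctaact
The Cdkn1b stretch held none of the listed motifs, and the Cdkn2c stretch held 2 GC boxes, a motif found in 17.6% of the 32851 RefSeq promoters of 300 bases.

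The gene group spanned the whole range from regions open everywhere to regions open in 1 library. Of the 129 regions 5 were called in all 36 libraries (3.88%, against 5.08% of all regions): Cdk6 -191.5 kb, Ccnd3 +6.1 kb, the Cdkn1b promoter, Cdkn1b +8.2 kb and the Cdkn2c start-site region. A further 15 were called in 1 library only (11.6%, against 18.4% of all regions). By position 14 regions were promoters (10.9%, against 12.1% of all), 53 lay in introns (41.1% against 40.6%) and 59 between genes (45.7% against 41.8%). The introns were not always those of the named gene, since all 9 intronic regions nearest to Cdkn1c lay in Kcnq1, its neighbour in an imprinted domain.

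HSC libraries carried on average fewer calls at these genes than those of every other fraction except MEPs. HSCs held 34 ± 5.9 called regions (SD, n = 8), MPP1 41.5 ± 5.07, MPP2 41.0 ± 4.69, MPP3 42.75 ± 4.03, MPP4 47.0 ± 2.45, CLPs 43.0 ± 2.16, GMPs 84.5 ± 6.03 and MEPs 9.25 ± 0.5 (n = 4 each). The ranges of HSCs (27 to 43) and MPP4 (44 to 50) did not overlap, while over all regions the HSC libraries held 26701 to 37422 calls and the MPP4 libraries 32351 to 33618. The 9 genes took 0.0907% to 0.121% of the calls in HSCs, below every library of MPP3 (0.13% to 0.145%), MPP4 (0.132% to 0.149%), CLPs (0.129% to 0.155%) and GMPs (0.145% to 0.149%), while the shares in MPP1 (0.101% to 0.141%), MPP2 (0.117% to 0.145%) and MEPs (0.0929% to 0.0969%) overlapped with them. In number of calls the HSC range overlapped with MPP1 (34 to 45), MPP2 (37 to 46), MPP3 (38 to 47) and CLPs (40 to 45). When every library was cut to 9581 peaks, HSCs held 8.75 ± 1.67 of the regions, MPP1 8.0 ± 1.83, MPP2 9.5 ± 2.38, MPP3 11.75 ± 1.89, MPP4 9.25 ± 2.63, MEPs 8.75 ± 1.26, GMPs 16 ± 0.816 and CLPs 15.25 ± 2.63. At an equal number of peaks the GMPs (15 to 17) and CLPs (13 to 18) thus lay above all HSC libraries (7 to 12), and the MEPs lay among them.

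**Figure D1:**
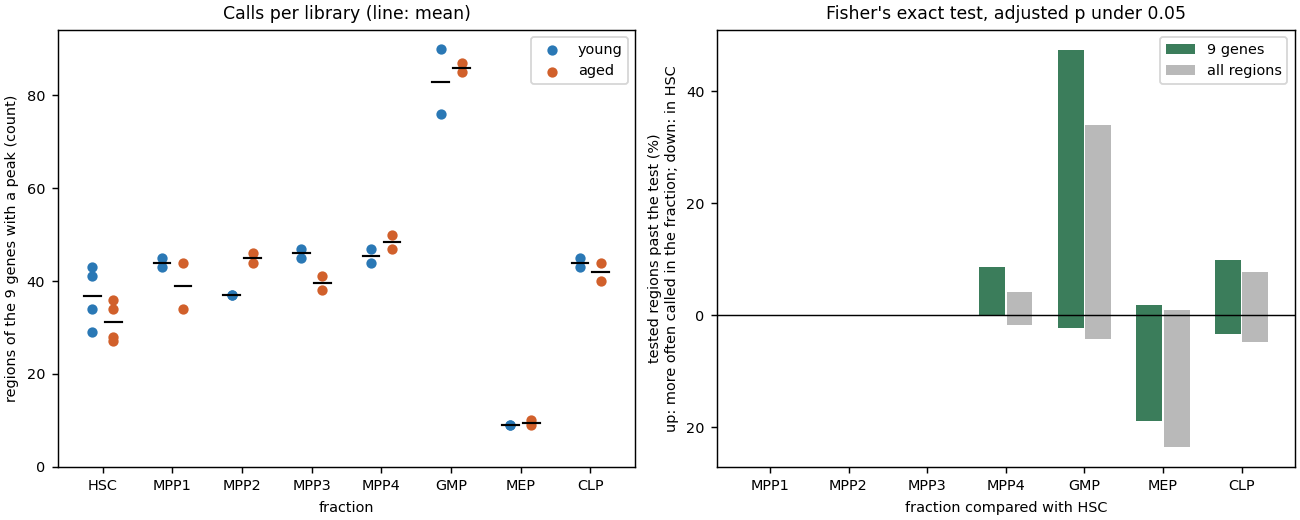
Left, the number of the 129 regions with a peak in each library (points, young and aged, line for the mean), by fraction, with GMP libraries at 76 to 90 and MEP libraries at 9 or 10. Right, the share of tested regions past Fisher's exact test against HSCs, for the 9 genes and for all regions, with 47.3% against 34% more often called in GMPs.

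The comparison of HSCs with each progenitor fraction asks which elements around these genes open or close as the stem cell state is left. Calls in the 8 HSC libraries were set against the 4 of each other fraction by Fisher's exact test, two-sided, with Benjamini-Hochberg adjustment over all regions. The smallest p that 8 against 4 libraries allow is 0.00202, and a region at that p passes the adjusted threshold of 0.05 only when at least 4.04% of the tested regions reach it too. No region of the 9 genes, and 0% of all regions, passed against MPP1, MPP2 or MPP3. At an unadjusted p under 0.05 there were 2 of 45 tested regions of these genes for MPP1 (749 of 41270 over all regions), 6 of 53 for MPP2 (2494 of 44038) and 7 of 52 for MPP3 (3421 of 45556). All 7 comparisons share the HSC libraries.

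Regions with the smallest p in the early progenitors lay at Cdk6 and the cyclin genes. Cdk6 -73.9 kb and Cdk6 -64.7 kb were each called in 0 of 8 HSC and 3 of 4 MPP1 libraries (Fisher's exact test, adjusted p = 1 for both). Cdk6 +27.1 kb, in a Cdk6 intron, and Ccnd1 -31.4 kb were called in 0 of 8 HSC and 4 of 4 MPP2 libraries (adjusted p = 0.115). Cdk6 -42.7 kb was called in 1 of 8 HSC and 4 of 4 MPP2 and MPP3 libraries (adjusted p = 0.303 and 0.223). The same p belonged to Ccnd3 +18.3 kb in MPP2 and Ccnd2 -113.1 kb in MPP3, each with 1 of 8 HSC and 4 of 4 calls, and to Cdk6 +89.2 kb in both, with 7 of 8 HSC calls and 0 of 4. Ccnd2 -14.8 kb and again Ccnd1 -31.4 kb were called in 0 of 8 HSC and 4 of 4 MPP3 libraries (adjusted p = 0.0824).

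In MPP4, 5 of 58 tested regions were called more often than in HSCs, and none less often, against 4.05% more often and 1.68% less often over all regions. The 5 were Cdk6 -70.5 kb, Ccnd1 -31.4 kb, Ccnd2 -103.0 kb, Ccnd3 +37.1 kb and Cdkn1c +111.0 kb, each called in 0 of 8 HSC and 4 of 4 MPP4 libraries (Fisher's exact test, adjusted p = 0.0352). The 5 calls rest on few libraries, since none passed without aged HSC replicate 2 or without any 1 of the 4 MPP4 libraries and none passed with equal numbers of peaks. The first 4 regions, 1 each for Cdk6 and the D-type cyclins, were also called in 4 of 4 GMP and 4 of 4 CLP libraries and in no MEP library.

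Cdk6 -70.5 kb (chr5:3273060-3273637, between genes) held fold enrichments of 11.6, 8.03, 9.65 and 8.9 in MPP4, of 11.9, 13.6, 11.4 and 11.0 in GMPs and of 18.8, 18, 12.9 and 21.9 in CLPs. It was called in 2 MPP2 libraries (6.47 and 9.27) and 3 MPP3 libraries (4.49 to 5.08), and in none of HSCs, MPP1 or MEPs. The CLP levels were the highest, and only the lowest of them reached into the GMP range.

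Ccnd1 -31.4 kb (chr7:144970915-144971589, between genes) was called in 2 of 4 MPP1 libraries at 6.79 and 5.58, in MPP2 at 6.27 to 10.1, in MPP3 at 4.78 to 12 and in MPP4 at 8.04 to 11.3. The CLP libraries held 12.8 to 13.8 and the GMP libraries 15.9 to 20.9. Ccnd1, the cyclin that growth signals induce in many cells, thus had a region with no call in HSCs and calls in all 20 libraries of MPP2, MPP3, MPP4, GMPs and CLPs.

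Ccnd2 -103.0 kb (chr6:127253831-127254342, between genes) was called in 3 MPP3 libraries (6.37 to 11.3), in MPP4 at 6.52 to 12.9, in CLPs at 14.6 to 19 and in GMPs at 24.0 to 24.5. Ccnd3 +37.1 kb (chr17:47541914-47542536, in a Ccnd3 intron) was called at 5.9 to 7.97 in MPP4, at 12.7 to 19.8 in CLPs and at 15.6 to 16.1 in GMPs, and in 3 further libraries of MPP2 and MPP3. In both regions the MPP4 levels lay below every CLP and GMP level.

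In CLPs, 6 of 61 tested regions were called more often than in HSCs (7.63% of all regions) and 2 less often (4.77% of all regions). The 6 were the 4 regions above with Ccnd1 -89.5 kb and Ccnd2 -85.7 kb, each in 0 of 8 HSC and 4 of 4 CLP libraries (Fisher's exact test, adjusted p = 0.0163). The 2 lost were Ccnd1 -85.8 kb and Cdkn1c +70.5 kb, each in 8 of 8 HSC and 0 of 4 CLP libraries. The call held at every library left out in turn, and with equal numbers of peaks it held for Cdk6 -70.5 kb, Ccnd2 -103.0 kb and Ccnd3 +37.1 kb. Around Ccnd1 the CLPs therefore lacked one upstream region and held 2 others: Ccnd1 -85.8 kb (chr7:145025332-145025931) was called in HSCs at 7.67 to 15.8, in the MPPs at 8.53 to 16.3 and in GMPs at 4.5 to 7.31, below every HSC level, whereas Ccnd1 -89.5 kb, further out, was called in all 4 CLP, 2 GMP and 1 MPP4 libraries.

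**Figure D2:**
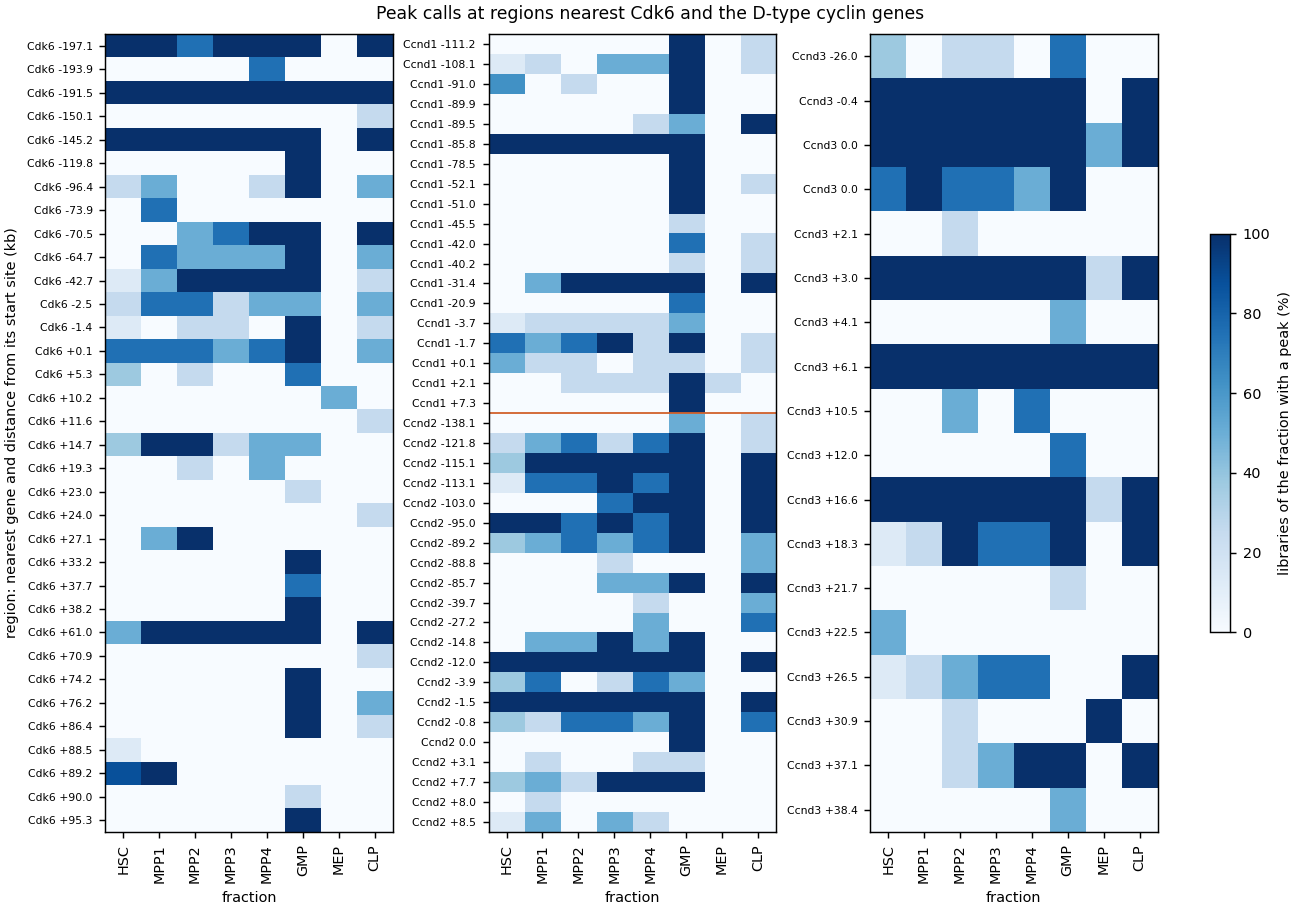
Share of libraries of each fraction (columns) with a peak at each region (rows, distance in kb from the nearest TSS of the gene) nearest to Cdk6, Ccnd1, Ccnd2 and Ccnd3. Cdk6 +89.2 is dark in HSCs and MPP1 alone, Ccnd3 +30.9 in MEPs, and a block of intronic Cdk6 regions in GMPs.

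The number of calls that differed from HSCs was highest for GMPs, but not with equal numbers of peaks, where it was 4 for GMPs, 5 for CLPs and 3 for MEPs. Of 91 tested regions 43 were called more often in GMPs than in HSCs (47.3%) and 2 less often, against 34% and 4.26% of all regions. The median difference in calls over the tested regions was 62.5 percentage points for the 9 genes and 37.5 over all regions. The 43 comprised 12 of 22 tested regions of Cdk6, 11 of 18 of Ccnd1, 5 of 14 of Ccnd2, 3 of 10 of Ccnd3, 4 of 5 of Cdkn1a, 1 of 3 of Cdkn1b, 2 of 10 of Cdkn1c, 2 of 5 of Cdkn2a and 3 of 4 of Cdkn2c. With equal numbers of peaks 4 regions passed, and 3 of them were among these 45 (Ccnd2 -85.7 kb, Ccnd2 -103.0 kb and Ccnd2 -113.1 kb, adjusted p = 0.00996), so that the part of the larger number of GMP peaks in the other calls was not tested further.

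Of the 43, 16 were called in all 4 GMP libraries and in no other library (12.4% of the 129, against 8.81% of all regions). They lay at Cdk6 (5), Ccnd1 (4), Cdkn2c (3), Cdkn1a (2), Ccnd2 (1) and Cdkn1b (1). The strongest was Ccnd1 -89.9 kb (chr7:145029687-145029921), at 16, 17.6, 14.3 and 17.4. Cdkn2c +55.4 kb (chr4:109609847-109610089) was called at 9.37, 18, 14.3 and 17.4, and Cdk6 +95.3 kb, in a Cdk6 intron (chr5:3439463-3439731), at 8.91, 13.7, 12 and 12.7. Young and aged GMPs overlapped in all 3.

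The GMP-only regions included 1 of the 2 start-site regions of Ccnd2 (chr6:127150980-127151172), called in the 4 GMP libraries at 5.15, 5.61, 6.37 and 7.22. The other, Ccnd2 -0.8 kb (chr6:127151606-127152131), was called in 19 libraries of every fraction but MEPs, 3 of them HSCs and 4 GMPs, at 3.54 to 6.28. The start site of Cdkn1a (chr17:29093513-29093829), the gene of the inhibitor that p53 induces, was called in the 4 GMP libraries at 3.73 to 5.56 and in 1 aged MPP3 library at 4.92. Cdkn1a had another region, +1.7 kb from that TSS in its intron (chr17:29095084-29095783), in 33 of 36 libraries, all but 3 of MEPs.

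A C/EBP motif lay in the windows of 12 of the 43 regions gained in GMPs (27.9%), against 26.2% of the 26429 windows of all regions gained in GMPs and 14.2% of all windows. In the same 43 windows a GATA motif lay in 1 (2.33%, against 14.6% of all regions gained in GMPs) and a RUNX motif in 1 (2.33% against 14.6%). The window of Cdkn2c +55.4 kb printed above holds a C/EBP match close to its centre.

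The 2 regions called less often in GMPs were Cdk6 +89.2 kb, called in HSCs and MPP1 alone, and Cdkn1c +70.5 kb, called in the MPPs too. Cdk6 +89.2 kb (chr5:3433140-3433813, in a Cdk6 intron) was called in 7 of 8 HSC libraries, at 7.86, 7.03 and 8.77 in young and 4.6, 9.56, 11.9 and 8.86 in aged mice, and in 4 of 4 MPP1 libraries at 4.64, 4.96, 6.46 and 9.41. No library of another fraction had a call there. The difference from HSCs passed for GMPs (Fisher's exact test, adjusted p = 0.0331) and MEPs (adjusted p = 0.0413), and for MPP2, MPP3, MPP4 and CLPs 7 of 8 against 0 of 4 did not (adjusted p = 0.303, 0.223, 0.119 and 0.0626). Within Cdk6 the intronic regions of GMPs and the one of HSCs lay side by side: Cdk6 +86.4 kb and +95.3 kb were called in 4 of 4 GMP and 0 of 8 HSC libraries, the former also in 1 CLP library.

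Cdkn1c +70.5 kb (chr7:143390307-143390699, in an intron of Kcnq1) was called in 8 of 8 HSC libraries, at 6.45, 7.09, 8.36 and 9.39 in young and 7.99, 5.02, 6.72 and 6.42 in aged mice. It was called in 4 of 4 MPP1 libraries (6.52 to 8.49), 1 MPP2 library, 2 MPP3 libraries and 4 of 4 MPP4 libraries (6.88 to 8.44), and in no GMP, MEP or CLP library (adjusted p = 0.00765, 0.0111 and 0.0163). Its neighbour Cdkn1c +71.5 kb (chr7:143389303-143389646) was called in 6 of 8 HSC and 2 of 4 MPP1 libraries and nowhere else. Cdkn1c encodes the inhibitor most closely tied to HSC rest. Its own start site (chr7:143460909-143461368) followed another order, with calls in 5 of 8 HSC, 3 of 4 MPP2, 1 of 4 MPP4 and 3 of 4 MEP libraries and in all 4 libraries each of MPP1, MPP3, GMPs and CLPs. The called levels there were 5.39 to 10.9 in HSCs and 14.1 to 18.4 in GMPs.

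**Figure D3:**
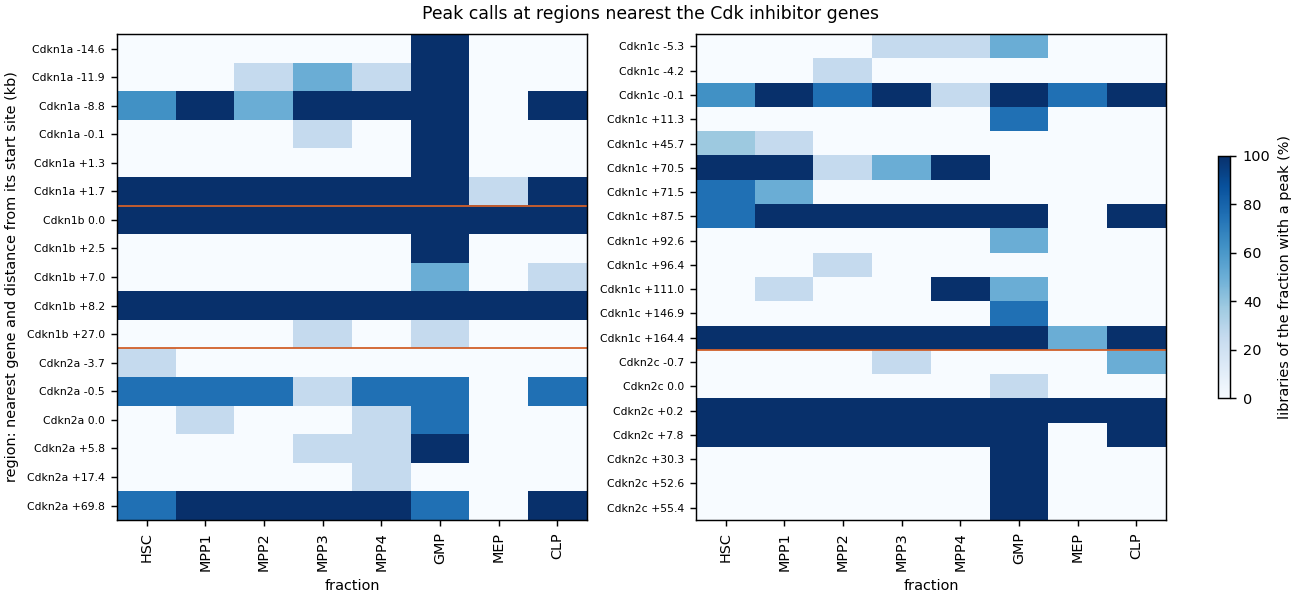
Share of libraries of each fraction (columns) with a peak at each region (rows, distance in kb from the nearest TSS of the gene) nearest to the inhibitor genes. The Cdkn1b promoter, Cdkn1b +8.2 and Cdkn2c +0.2 are dark in every fraction, and Cdkn1c +70.5 and +71.5 are dark in HSCs and empty in GMPs, MEPs and CLPs.

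Across the 129 regions, 6 were called in 2 or more libraries of HSCs or MPP1 and nowhere else (4.65%, against 4.44% of all regions). They were Cdk6 -73.9 kb, Cdk6 +89.2 kb, Ccnd3 +22.5 kb, Cdkn1c +45.7 kb, Cdkn1c +71.5 kb and Cdkn2a -3.7 kb.

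In MEPs 10 of 53 tested regions were called less often than in HSCs (23.5% of all regions) and 1 more often (1.01% of all regions). The 1 gained was Ccnd3 +30.9 kb (chr17:47535796-47536267, in a Ccnd3 intron), called in MEPs at 9.88, 8.78, 8.78 and 8.41, in 1 aged MPP2 library at 7.07 and in none of the other 31 libraries (Fisher's exact test, adjusted p = 0.0111). Ccnd3 is the D-type cyclin known for setting the divisions of red cell precursors. The window printed above holds a GATA and a C/EBP match, each on the minus strand. The 10 lost were Cdk6 -197.1, -145.2 and +89.2 kb, Ccnd1 -85.8 kb, Ccnd2 -1.5, -12.0 and -95.0 kb, Ccnd3 -0.4 kb, Cdkn1c +70.5 kb and Cdkn2c +7.8 kb. With equal numbers of peaks Ccnd3 +30.9 kb, Ccnd3 -0.4 kb and Cdk6 -145.2 kb kept their calls (adjusted p = 0.0157). No region of Ccnd2 or Cdkn2a was called in any MEP library, but few regions were: 14 of the 129 (10.9%), against 13.3% of all regions.

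Start sites differed widely between the genes. The Cdk6 start site (chr5:3343502-3344522) was called in 23 of 36 libraries, at 3.65 to 6.62, in 6 of 8 HSC libraries, in 4 of 4 GMP libraries and in none of MEPs. The Ccnd1 start site was called in 9 of 36 libraries, of which 4 were HSCs. Beside its start-site region called in all 36 libraries (chr4:109666606-109667294, annotated as UTR), Cdkn2c had Cdkn2c -0.7 kb, called in 1 MPP3 and 2 CLP libraries, and a region at its downstream start (chr4:109665246-109665421), called in 1 GMP library. Ccnd3 has 3 start-site regions, called in 22, 34 and 32 libraries. The first (chr17:47504916-47505214) had calls in every young HSC library, in 2 aged ones and in no CLP or MEP library. Cdkn2a has a downstream start for Ink4a and an upstream start for Arf: the Ink4a start (chr4:89282055-89282368) was called in 5 of 36 libraries and in no HSC library, and the Arf start (chr4:89294592-89295651) in 22, among them all 4 young HSC libraries and 2 aged ones.

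Away from the start sites, each gene's 3 regions with the highest median fold enrichment were taken over the libraries that called them, which favours regions called in GMPs, where the median level over shared regions is higher. Among these, Cdk6 -145.2 kb (chr5:3198214-3199258) and Ccnd2 -12.0 kb (chr6:127162799-127163227) were called in 32 libraries, all but those of MEPs, with median fold enrichments of 15 and 16.3. Ccnd3 +16.6 kb (chr17:47521452-47522010) was called in 33 libraries (median 11.1), Cdkn1c +164.4 kb (chr7:143296352-143296845) in 34 (median 12), Cdkn1c +87.5 kb (chr7:143373203-143373760) in 30 (median 9.77), Cdkn2a +69.8 kb (chr4:89212172-89212655) in 29 (median 9.64) and Cdkn1a -8.8 kb (chr17:29082008-29082444) in 27 (median 8.55). Ccnd1 -78.5 kb, Cdkn1b +2.5 kb, Cdkn2c +52.6 kb and Cdkn2c +30.3 kb were called in 4 GMP libraries alone, Cdkn1c +11.3 kb in 3 GMP libraries alone and Ccnd1 -42.0 kb in 3 GMP and 1 CLP libraries. Cdkn1a -11.9 kb was called in 4 of 4 GMP libraries and 4 others, and Cdkn2a +5.8 kb in 4 of 4 GMP libraries and 2 others. A region downstream of Cdkn1b (chr6:134947403-134947620) was called in 1 MPP3 and 1 GMP library, and Cdkn2a +17.4 kb in 1 MPP4 library.

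The likeness of start sites was read from the 8 fraction means of log2(fold enrichment + 1), with an uncalled library at 0, over 13862 protein-coding genes, and each r below is over these 8 means, a description in which all genes share the libraries and their numbers of peaks. The start site of Cdkn1b was most like those of Dhdh, Sdk1 and Zc3h6 (Pearson r = 0.993, 0.991 and 0.99). Cdk6 was most like Cped1, Yipf6 and Tuba4a (0.992, 0.985 and 0.984) and Cdkn2c like Traf5, Sdcbp and Aire (0.991, 0.989 and 0.988). Ccnd3 was most like Ctnnal1, Sema6a and Trmt10c (0.999, 0.998 and 0.998), Cdkn2a like Slc25a5, 3110001I22Rik and 9130008F23Rik (0.996, 0.989 and 0.972), and Cdkn1c like Ccnb2, Kdm1a and Nol7 (0.955, 0.946 and 0.926). Ccnd1 had the least similar neighbours, Tns3, Itga7 and Arhgap22 (0.913, 0.887 and 0.856). For the Ccnd2 and Cdkn1a regions with the highest median level at a start site, called in GMPs alone and in GMPs with 1 MPP3 library, r with many other such genes was 1 or close to it and names none in particular.

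The levels at the 5 regions called in all 36 libraries were compared by limma, on log2 fold enrichment after subtraction of each library's median over the 5335 regions called everywhere. That median was 11.6 to 13.8 in HSCs, 18.5 to 20.3 in GMPs and 7.52 to 7.77 in MEPs, a shift from HSCs of 0.59 and -0.74 on the log2 scale, so that for these fractions a centred difference is relative to the other regions. In MPP1 to MPP4 none of the 5 regions passed. Over all regions the shares higher and lower were 0.131% and 0.0187% for MPP1, 1.35% and 0.694% for MPP2, 3.32% and 3.17% for MPP3, and 2.98% and 2.72% for MPP4. The nearest was the Cdkn1b promoter in MPP3 (9.93 ± 1.32 against 7.21 ± 0.955 in HSCs, log2 difference 0.35, SE 0.12, adjusted p = 0.0719).

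In GMPs 3 of the 5 were higher than in HSCs and 1 was lower, against 21.8% and 27.9% of all regions. Ccnd3 +6.1 kb, in a Ccnd3 intron (chr17:47511090-47511486), rose the most, from 9.04 ± 1.85 (SD, n = 8) in HSCs to 22.7 ± 1.78 (n = 4), a centred log2 difference of 0.77 (SE 0.13, limma, adjusted p = 5.82e-06). The Cdkn1b promoter stood at 15 ± 1.72 in GMPs (log2 difference 0.47, SE 0.12, adjusted p = 0.00145) and Cdkn1b +8.2 kb at 20.6 ± 1.9 against 10.8 ± 1.28 (0.34, SE 0.10, adjusted p = 0.00421). The Cdkn2c start-site region, at 15 ± 1.62 against 12.7 ± 2.03, was lower relative to other regions (-0.34, SE 0.12, adjusted p = 0.0172), and without centring its difference had the opposite sign (0.25, adjusted p = 0.0628). The call was also lost without young GMP replicate 2 (adjusted p = 0.0764) or aged GMP replicate 1 (adjusted p = 0.0601).

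In MEPs, 1 region was higher and 1 lower, against 23% and 15.8% of all regions. The Cdkn1b promoter held 6.39 ± 0.59, close to the HSC level of 7.21 ± 0.955, while the median over all shared regions was lower than in HSCs, a centred log2 difference of 0.57 (SE 0.12, adjusted p = 0.000266) and an uncentred one of -0.17 (adjusted p = 0.215). Cdkn1b +8.2 kb fell to 4.54 ± 0.789, further than other regions (-0.52, SE 0.10, adjusted p = 6.37e-05). The 2 Cdkn1b regions, 8.2 kb apart, thus moved in opposite directions relative to other regions in MEPs and in the same direction in GMPs. In CLPs the Cdkn2c start-site region was lower (10.5 ± 1.05, log2 difference -0.34, SE 0.12, adjusted p = 0.0494), against 8.19% of all regions lower and 7.67% higher, and this call was lost in 5 other settings and without any 1 CLP library (adjusted p up to 0.147), among other libraries.

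**Figure D4:**
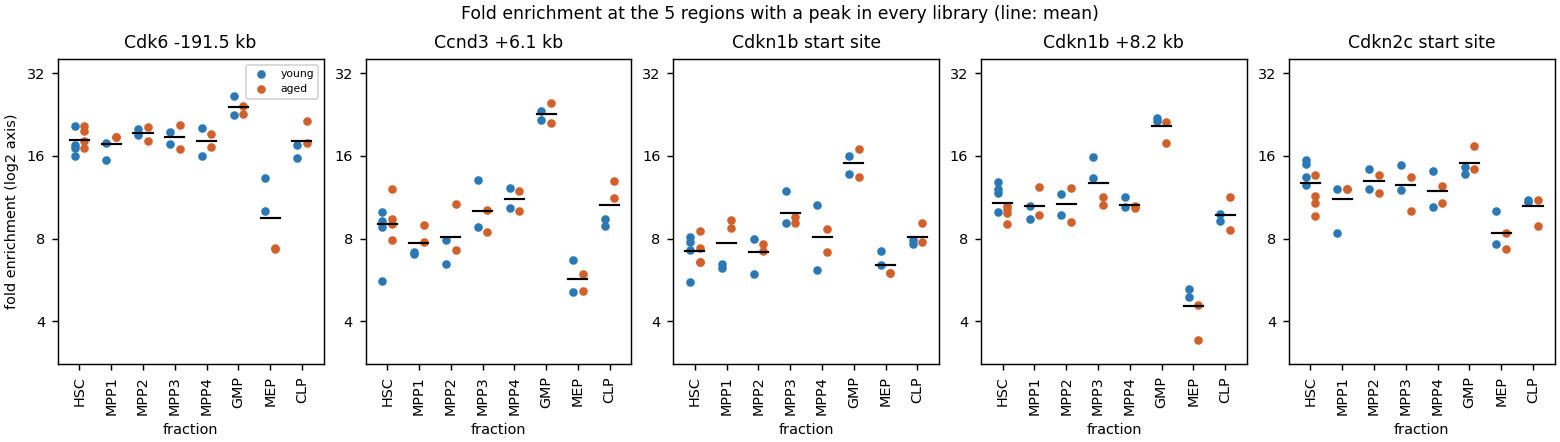
Fold enrichment (log2 axis) in every library at the 5 regions called in all 36, by fraction, young and aged as points and the fraction mean as a line. GMP points lie highest at Ccnd3 +6.1 kb and at both Cdkn1b regions, and MEP points lie lowest at Cdkn1b +8.2 kb.

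A fit without the MEPs, added after the data were seen, reached 15 regions of 7 of the genes and 11159 regions in all. The clearest gain was at Cdkn2c +7.8 kb (chr4:109656954-109658160, between genes), the gene of an Ink4 inhibitor of Cdk4 and Cdk6. Its level was 6.55 ± 0.748 in HSCs (5.76 to 7.95), 8.4 ± 0.778 for MPP1, 8.54 ± 2.07 for MPP2, 10.6 ± 1.05 for MPP3, 8.12 ± 0.927 for MPP4, 13.6 ± 2.57 in CLPs and 18 ± 1.39 in GMPs. The lowest CLP library (11.0) lay above the highest HSC library. The centred log2 difference was 0.60 (SE 0.12, limma, adjusted p = 0.00126) in MPP3, 0.86 (SE 0.12, adjusted p = 2.85e-07) in GMPs and 1.01 (SE 0.12, adjusted p = 3.94e-08) in CLPs, against 4.75%, 22.5% and 13% of all regions higher in these fractions, and it kept its sign and its call without centring. Cdk6 -145.2 kb was higher in MPP2 (17 ± 2.2 against 12.7 ± 1.56, 0.40, SE 0.11, adjusted p = 0.0293), where 2.24% of all regions were.

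In CLPs, 1 region at a cyclin promoter and 1 upstream of another cyclin gene were lower, against 13.6% of all regions. Ccnd3 -0.4 kb, at the third Ccnd3 start, fell from 9.16 ± 1.36 in HSCs to 5.26 ± 0.603 (centred log2 difference -0.82, SE 0.12, limma, adjusted p = 2.91e-06), with no overlap between the 8 and the 4 libraries. Ccnd2 -1.5 kb fell from 6.03 ± 1.34 to 4.27 ± 0.436 (-0.49, SE 0.14, adjusted p = 0.00944). In GMPs the same fit called 6 of the 15 regions, 4 higher and 2 lower, the lower pair being the Cdkn2c start-site region and Cdk6 -191.5 kb (-0.21, SE 0.09, adjusted p = 0.0438), where 30.1% of all regions were lower. Cdk6 -191.5 kb was lower only relative to other regions: its level was 24 ± 1.8 in GMPs against 18.3 ± 1.71 in HSCs, with no overlap, and without centring the difference was 0.39 (limma, adjusted p = 0.000659).

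The comparison of young with aged mice asks whether the elements of these genes change with age. Over all fractions, with the fraction as a stratum of an exact conditional test, no region of the 9 genes passed and 0% of 85292 tested regions did. At an unadjusted p under 0.05 there were 0 of 102 tested regions of these genes, against 1.37% of all regions. The smallest p belonged to Cdkn1c +45.7 kb (chr7:143415149-143415386, in an intron of Kcnq1), called in 4 young libraries, 3 of HSCs (7.33, 9.95 and 5.88) and 1 of MPP1 (7.04), and in no aged library (exact conditional test, p = 0.0714, adjusted p = 1). For Cdk6 -96.4 kb, with 8 young and 3 aged calls, the same exact test gave p = 0.0754 (adjusted p = 1).

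In HSCs, no region of the 9 genes was called in 4 of 4 libraries of either age while absent from the opposite age, as were 1.06% of the 34285 regions tested, and 0% passed an adjusted p under 0.05 in Fisher's exact test, whose smallest p with 4 against 4 is 0.0286. Of 36 tested regions, 4 were called in 3 young and 0 aged HSC libraries, and 0 were called in at least 3 aged and 0 young ones. Of the 34285 regions tested, 745 had at least 3 young and 0 aged calls and 692 the reverse, together 4.19%. Each of the 4 had Fisher's exact p = 0.143. They were Ccnd2 -115.1 kb, Ccnd2 +7.7 kb, Ccnd3 -26.0 kb and Cdkn1c +45.7 kb. The young HSC libraries differed in number of peaks, with 35186 and 38756 peaks in replicates 1 and 2 and 27856 and 29022 in replicates 3 and 4, while the aged ones held 31081 to 32185. The part of these numbers in the age differences was not tested. The labels do not say which HSC libraries were prepared together, and replicates 1 and 2 were set apart from 3 and 4 because the files of the former are named like those of the other fractions. Within replicates 1 and 2, 5 of 26 tested regions were called in both young and neither aged library and none the other way (14.5% of all regions in either direction): Cdk6 -96.4 kb and the 4 above. Within replicates 3 and 4, 3 of 27 differed in this way (18.2% of all regions), and none of the 5 was among them. The first Ccnd3 start was then called in both young libraries, and Cdkn1a -8.8 kb and Cdkn2a -3.7 kb in both aged ones.

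Called regions of these genes numbered 41, 43, 29 and 34 in young HSC replicates 1 to 4 and 36, 28, 34 and 27 in aged ones. Over all regions the young libraries held 33960, 37422, 26701 and 28050 calls and the aged ones 30495, 30617, 30921 and 29779, and the share of the 9 genes was 0.109% to 0.121% in young and 0.0907% to 0.118% in aged HSCs, ranges that overlapped.

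Ccnd2 -115.1 kb (chr6:127265851-127266513) shows how a missing call in aged HSCs stood beside calls elsewhere. It was called in young HSCs at 6.94, 6.93 and 6.13 and in none of the 4 aged HSC libraries, but in 12 of 12 aged libraries of MPP1 to MPP4, GMPs and CLPs, at 5.7 to 12.6.

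Levels in HSCs were compared by limma at the 17340 regions called in all 8 libraries, where 0% passed and 1571 had an unadjusted p under 0.05. Among the 19 regions of these genes 0 passed and 3 had an unadjusted p under 0.05. Ccnd2 -1.5 kb was 4.25, 4.4, 6.47 and 5.17 in young and 6.89, 6.06, 8.1 and 6.89 in aged HSCs (log2 difference 0.49, SE 0.18, adjusted p = 0.438). Ccnd2 -12.0 kb was 18.8, 18, 13.4 and 16 in young and 13.5, 14.2, 9.09 and 11.5 in aged HSCs (-0.45, SE 0.17, adjusted p = 0.441). The Ccnd3 start at chr17:47593205-47593732 was 4.89, 7.52, 5.07 and 3.53 in young and 7.45, 8.63, 6.45 and 5.36 in aged HSCs (0.46, SE 0.19, adjusted p = 0.486). The ages overlapped in all 3, and the 2 Ccnd2 regions differed in opposite directions. The Cdkn2c start-site region, at 12.6 to 15.5 in young and 9.65 to 13.7 in aged HSCs, had a log2 difference of -0.30 (SE 0.15, adjusted p = 0.572), and the Cdkn1b promoter one of 0.05 (SE 0.17, adjusted p = 0.971).

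**Figure D5:**
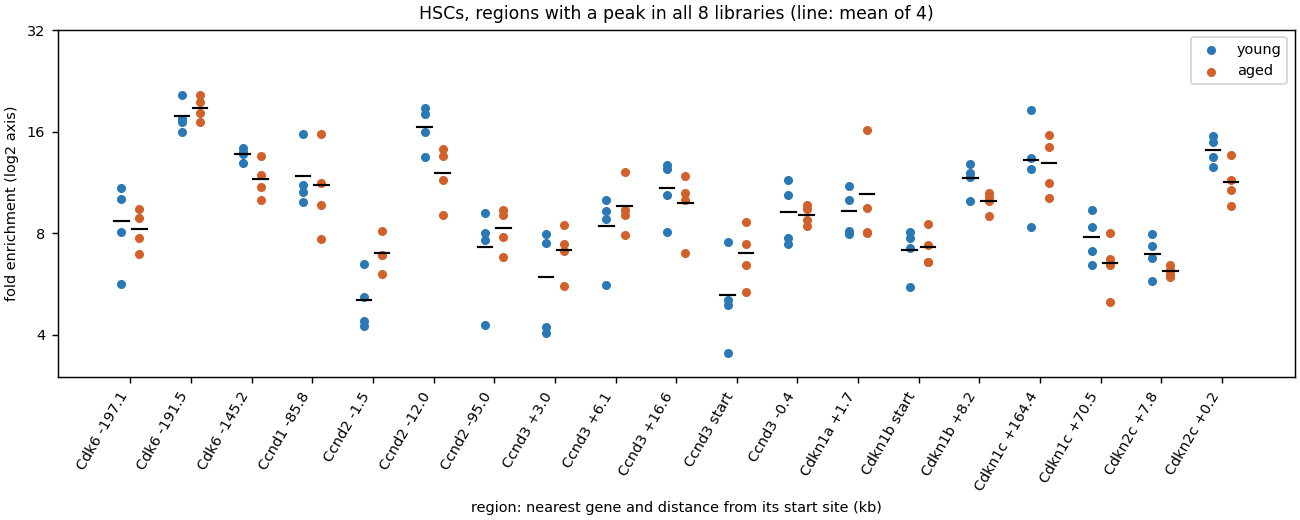
Fold enrichment (log2 axis) in the 4 young and 4 aged HSC libraries (points, line for the mean) at the 19 regions of the 9 genes called in all 8. Young and aged points overlap at Ccnd2 -1.5 and -12.0, the regions with the smallest unadjusted p.

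Over all fractions the age term of limma called 0% of the 5335 regions (376 at an unadjusted p under 0.05) and 0 of the 5 regions of these genes. The log2 differences of aged from young were 0.13 (95% interval -0.01 to 0.27) at Ccnd3 +6.1 kb, 0.06 (-0.07 to 0.19) at the Cdkn1b promoter, 0.00 (-0.13 to 0.12) at Cdk6 -191.5 kb, -0.08 (-0.22 to 0.05) at the Cdkn2c start-site region and -0.13 (-0.24 to -0.02, adjusted p = 0.608 by limma) at Cdkn1b +8.2 kb. The test of whether the age difference itself varied between fractions called 0% of all regions and 0 of the 5, with an unadjusted p under 0.05 at Cdk6 -191.5 kb alone (limma F test, adjusted p = 0.958). There the MEP levels were 13.2 and 10.1 in young and 7.39 and 7.35 in aged mice.

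The other genes of the pathway, a list of 36 kinases, cyclins, inhibitors, pocket proteins, E2F factors and replication genes, had 327 regions, of which 25 were called in all 36 libraries. At their start sites, with the regions of a gene pooled, 34 of 36 had a call in at least 26 libraries, among them Cdk1, Cdk2, Cdk4, Ccna2, Ccnb1, Ccne1, E2f1, Mki67 and Pcna in all 36, and E2f2 and Skp2 had no start-site region. Against HSCs 6 of 146 tested regions were more often called in MPP4 and 4 less often (4.11% and 2.74%), 81 of 233 and 11 in GMPs (34.8% and 4.72%), 2 of 152 and 37 in MEPs (1.32% and 24.3%) and 12 of 168 and 11 in CLPs (7.14% and 6.55%). These shares lay near those of all regions. None passed in MPP1, MPP2 or MPP3 or with age, where 4 of 263 had an unadjusted p under 0.05. All 10 called against MPP4 tied at the smallest p, and the first by position were 2 regions of Foxo3 (chr10:42270717-42271055 and chr10:42293811-42294250), called in 0 of 8 HSC and 4 of 4 MPP4 libraries, and 1 region each of Cdkn3 (chr14:46678947-46679502) and Hes1 (chr16:29945922-29946446), called in 8 of 8 HSC and 0 of 4 MPP4 libraries (Fisher's exact test, adjusted p = 0.0352). Foxo3 encodes a factor that keeps HSCs at rest.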

How the data were processed

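ATAC-seq libraries of 20000 sorted cells had been size-selected at 240 to 360 bp and sequenced as single reads of 60 bp. The authors aligned reads to mm10 with Bowtie2, subsampled them with SAMtools and called narrow peaks per library with MACS2 2.2.6 at a q cutoff of 0.001. Per summit, the deposited peak lists hold a fold enrichment (a ratio to local background), a −log10 p, a −log10 q and a score. The files used here hold no read counts, so no count model could be run, read depth was not computed, and precision is described by the number of peaks per library.

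The 1204561 deposited peaks, after joining summits of one peak, were merged into regions, annotated from GENCODE (promoter, 1000 bp before a TSS to 100 bp after it), and assigned to the nearest protein-coding TSS. A start-site region held a TSS or lay within 1000 bp of one. Calls were tested by Fisher's exact test (HSCs against a fraction, and age in HSCs) or an exact conditional test stratified by fraction (age), and log2 fold enrichment by limma 3.58.1 in R 4.3.3, all two-sided, with Benjamini-Hochberg adjustment over all regions tested and a threshold of 0.05. Other steps used Python 3.11.15 and SciPy 1.17.1. The scripts were tested on simulated data.

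The members, the pathway, marker and motif lists and the tests were chosen with earlier results of these data known, and 1 marker gene is not reported here. Named were each gene's start-site regions, its 3 other regions with the highest median fold enrichment, and the 3 regions with the smallest p against each fraction (ties by difference in calls, then position). Other regions named in the text, among them those called in GMPs alone, in HSCs and MPP1, or in HSCs of one age, were chosen after their values were seen. Alternatives were a −log10 q of at least 10, cover of 50% of a region, an equal number of peaks, other centring, and leaving out each library.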

Additional observations from a re-analysis of the deposited data

How the results depend on the processing

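Against MPP4 the 5 calls became 2 with a −log10 q of at least 10, 3 when peaks covering less than 50% of a region were dropped and 0 with an equal number of peaks, and ranged from 0 to 6 when 1 library was left out, with 0 without young or aged MPP4 replicate 1 or 2 or aged HSC replicate 2. With an equal number of peaks there were 4 calls against GMPs (45 as reported), 3 against MEPs (11) and 5 against CLPs (8), of which 3, 3 and 3 were among those reported. The 50% cover left 4 against MEPs. Leaving out 1 library gave 32 to 40 calls against GMPs, 10 to 11 against MEPs and 8 to 10 against CLPs. In HSCs the number of regions that split the ages fully was 0, but 5 in replicates 1 and 2 alone, 3 in replicates 3 and 4 alone, and 0 to 3 when 1 library was left out (3 without young HSC replicate 3 and 1 without young HSC replicate 4). Such a split is easier to reach with fewer libraries. With TSSs of genes of all types the 9 genes held 69 regions in place of 129.

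For the levels between fractions, 7 of 35 comparisons passed, 11 without MEPs, 20 without MEPs and with no centring, both added after the data were seen and both over more regions, and 5 to 8 when 1 library was left out. Without centring the Cdkn2c start-site region in GMPs had a log2 difference of 0.25 (the same value without MEPs). The Cdkn1b promoter in MEPs had one of -0.17, and Cdk6 -191.5 kb in GMPs, -0.21 in the fit without MEPs, one of 0.39. All were opposite in sign to the centred values, since each was smaller in size than the shift in the median that centring takes off. With the replicate block 6 of the 7 passed, the one lost being the Cdkn2c start-site region in CLPs (-0.36, limma, adjusted p = 0.0857), and all tests of age gave 0. Same-numbered young and aged HSC libraries had correlations of 0.08, 0.09, 0.18 and -0.08, and differently numbered ones lay between -0.195 and 0.185. Correlations this weak cannot decide whether same-numbered libraries, or sets of them, were prepared together. The counts of 0 for age over all fractions and against MPP1 to MPP3 stayed 0 with any library left out. The number of peaks limits every call: a region without a peak may be open below the peak caller's cutoff.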
